A study of Mus musculus with 6 samples.

Results

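H3K4 chromatin immunoprecipitation in the mK4 line was set against the input DNA of the same line, gene by gene, to describe which genes carried more or less H3K4 signal than input. Of the 21937 genes in the count tables, 18224 had at least 10 reads in the mK4 H3K4 and mK4 input libraries together and were kept. The other 3713 genes had short exons, with a median exon length of 931 bases against 2637 bases in the genes kept. They included 803 olfactory receptor, 217 vomeronasal receptor, 569 microRNA and 94 small nucleolar RNA genes.

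In ChIP-seq, chromatin is fragmented, fragments that carry a modified histone are captured with an antibody, and their DNA is sequenced. Input is the same chromatin sequenced without pull-down. Methylation of lysine 4 on histone H3 is laid down by COMPASS and MLL methyltransferases. Its trimethylated form lies over the start sites of active genes and over CpG-rich promoters, where the CXXC domains of these complexes bind unmethylated CG pairs. Its monomethylated form is found at enhancers. In the embryonic kidney, nephron progenitors of the metanephric mesenchyme condense around the ureteric bud, turn epithelial and build the nephron.

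The groups were mK4 H3K4, mK4 H3K27 and mK4 input, and mK3 H3K4, mK3 H3K27 and mK3 input, with 1 library each. mK4 and mK3 are immortalized mouse lines made from metanephric kidney at stage E11.5, and both are given as strain CD1. No treatment or genotype is given, and each line stands for 1 immortalized population, so any difference between them is a difference between these cultures. The H3K4 antibody is labelled Abcam-ab8898 and the H3K27 antibody Active Motif-39535, and the degree of methylation is not given. As background, the vendor sells catalogue number ab8898 as an antibody against trimethylated H3K9, a mark of silent chromatin, so the label H3K4 and the catalogue number name different marks. The data are therefore given under the label H3K4, and which modification the antibody bound was not tested. Exon reads summed to 714011 in mK4 H3K4 and 386695 in mK4 input, and the other libraries ranged from 311409 to 595305.

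Reads were counted over exons. For each gene, reads were scaled to equal library totals, and log2 of H3K4 over input was taken after adding 5 scaled reads to each side. A gene was called enriched at 2-fold or more and depleted at 0.5-fold or less on this scale. Ratios printed with an interval are ratios of read shares with no added reads, and the exact Clopper-Pearson 95% interval covers counting error only. With 1 library per group there is no replicate spread and no test.

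H3K4 differed from input over a small share of genes. The log2 ratio had a median of -0.02 and an SD of 0.54 over the 18224 genes, and it ran between -1.95 and 2.56. Enrichment was called at 747 genes (4.1%) and depletion at 448 genes (2.46%). The enriched genes had a median of 39 H3K4 reads against 6 input reads, and the depleted genes had a median of 10.5 H3K4 reads against 18 input reads. The interval lay above 1 in 716 of the 747 enriched genes and below 1 in all 448 depleted genes. Without the fold minimum, the interval lay above 1 at 1426 genes (7.82%) and below 1 at 1443 genes (7.92%). Just inside the read minimum, the 324 genes with 10 reads had a median log2 ratio of -0.15, and just outside it the 328 genes with 9 reads had 0.05.

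A low input count and a high H3K4 count both give a high ratio, so H3K4 was also set against exon length, that is against the reads a gene would get if H3K4 reads were spread evenly over all exon bases. Of the 747 enriched genes, 297 (1.63% of genes kept) were also at least 2-fold over exon length, and these had a median of 71 H3K4 reads and 13 input reads. A further 323 lay between 1-fold and 2-fold over exon length, with medians of 33 H3K4 and 5 input reads. The remaining 127 lay below it, with medians of 17 H3K4 and 2 input reads. The genes high on both scales had a median log2 H3K27 over input of -0.27, and the 127 genes below exon length had one of 1.24, against -0.10 over all genes kept. H3K27 and H3K4 were divided by the same mK4 input, so a low input raises both ratios. Of the 448 depleted genes, 137 were also at 0.5-fold or less of exon length, 286 lay between, and 25 lay above exon length.

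**Figure D1:**
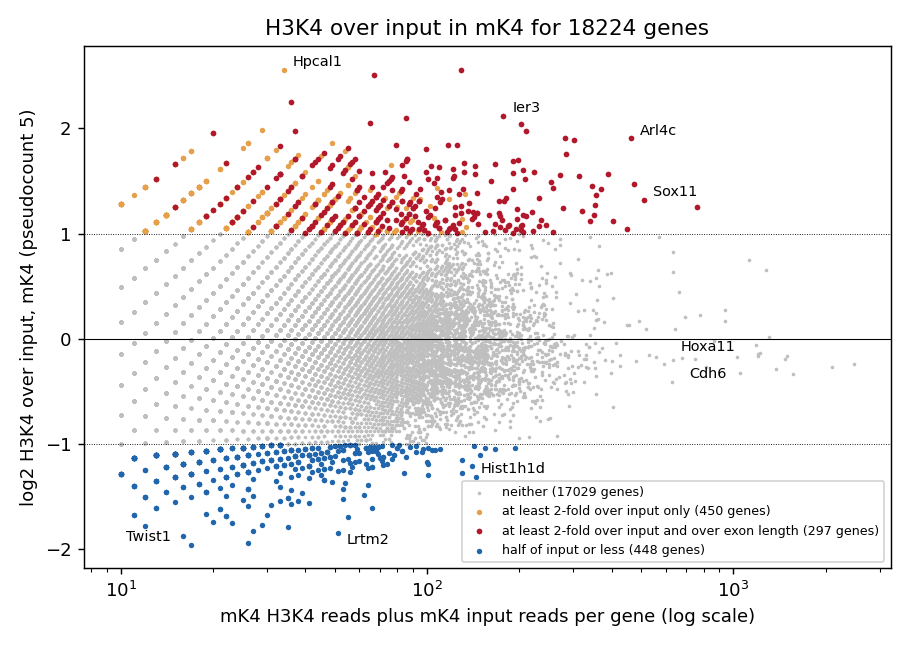
Each point is 1 of 18224 genes in mK4, with H3K4 plus input reads on the x axis (log scale) and log2 H3K4 over input on the y axis; dotted lines mark the calls. The 297 genes in red reach from few reads to the most deeply read genes, and the 448 depleted genes in blue lie mostly at low counts.

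The promoters of the named genes at both extremes are shown because CG pairs recruit the H3K4 methyltransferases. They run from 250 bases before to 50 bases after the annotated start, read 5′ to 3′ on the gene's strand, are taken from RefSeq on GRCm38.p6, and have every CG pair in capitals. The reads themselves were counted on exons of build mm9, so these sequences describe the genes and not the counted bases. Shown are the first 3 genes in each direction that have a promoter in the table. Among the enriched genes these are Hpcal1 (chr12:17690559-17690858, plus strand), Fam96b (chr8:104641679-104641978, minus strand) and Ier3 (chr17:35821463-35821762, plus strand).
Hpcal1: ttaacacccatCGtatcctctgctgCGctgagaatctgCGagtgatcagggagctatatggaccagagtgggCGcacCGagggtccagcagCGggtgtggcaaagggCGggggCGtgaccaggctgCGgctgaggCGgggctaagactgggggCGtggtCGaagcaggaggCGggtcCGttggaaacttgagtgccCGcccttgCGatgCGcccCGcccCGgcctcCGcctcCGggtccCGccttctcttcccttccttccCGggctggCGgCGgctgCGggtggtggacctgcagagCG
Fam96b: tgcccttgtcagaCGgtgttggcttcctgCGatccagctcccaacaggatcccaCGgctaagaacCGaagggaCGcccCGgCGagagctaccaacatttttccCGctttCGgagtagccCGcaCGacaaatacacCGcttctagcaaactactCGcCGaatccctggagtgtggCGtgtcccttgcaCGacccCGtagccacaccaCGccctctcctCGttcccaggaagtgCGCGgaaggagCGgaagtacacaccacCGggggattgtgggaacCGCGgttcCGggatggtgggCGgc
Ier3: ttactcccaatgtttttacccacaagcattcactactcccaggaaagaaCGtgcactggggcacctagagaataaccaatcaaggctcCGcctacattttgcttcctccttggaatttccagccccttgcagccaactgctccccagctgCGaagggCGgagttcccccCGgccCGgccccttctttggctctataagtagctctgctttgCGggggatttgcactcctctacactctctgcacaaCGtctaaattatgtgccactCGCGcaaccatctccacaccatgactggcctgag

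Hpcal1 and Fam96b each held 27 CG pairs and Ier3 held 10, against a median of 18 over the 14150 genes kept that had a promoter in the table, so Ier3 lay below that median. Among the depleted genes the promoters are those of Guca2b (chr4:119658896-119659195, minus strand), Twist1 (chr12:33957421-33957720, plus strand) and Lrtm2 (chr6:119330717-119331016, minus strand).
Guca2b: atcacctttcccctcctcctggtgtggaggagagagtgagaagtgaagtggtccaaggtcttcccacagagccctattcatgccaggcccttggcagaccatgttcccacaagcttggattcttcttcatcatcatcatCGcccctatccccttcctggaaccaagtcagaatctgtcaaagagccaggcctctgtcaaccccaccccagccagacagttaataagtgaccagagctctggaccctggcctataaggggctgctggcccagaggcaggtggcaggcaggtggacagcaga
Twist1: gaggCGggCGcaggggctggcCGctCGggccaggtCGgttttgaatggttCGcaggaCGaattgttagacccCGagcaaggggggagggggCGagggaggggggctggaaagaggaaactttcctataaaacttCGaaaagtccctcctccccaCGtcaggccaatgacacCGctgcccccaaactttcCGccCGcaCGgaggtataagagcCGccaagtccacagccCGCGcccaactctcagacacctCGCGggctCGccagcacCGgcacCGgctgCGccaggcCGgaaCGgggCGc
Lrtm2: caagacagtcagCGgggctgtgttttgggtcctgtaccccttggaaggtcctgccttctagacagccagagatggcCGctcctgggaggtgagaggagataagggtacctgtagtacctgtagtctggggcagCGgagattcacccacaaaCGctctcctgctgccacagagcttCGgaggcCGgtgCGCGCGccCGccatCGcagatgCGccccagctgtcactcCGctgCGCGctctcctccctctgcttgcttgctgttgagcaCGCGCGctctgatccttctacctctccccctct

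Guca2b held 1 CG pair, Twist1 held 27 and Lrtm2 held 18. CG, which reads the same on both strands, occurred at least once in 94.6% of the 32851 promoters in the table. The CG counts of the 6 genes overlapped between the directions, with Twist1 equal to Hpcal1 and Fam96b and with Lrtm2 above Ier3.

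Of the classes compared by promoter CG and gene span, almost intronless genes with CG-rich promoters were enriched most often. Promoter CG counts were matched to 14150 of the genes kept, with a median of 21 CG pairs for enriched genes and 10 for depleted genes, against 18 for all matched genes. Across quintiles of genes by promoter CG, from fewest to most, 2.33%, 3.71%, 5.05%, 4.59% and 4.59% were enriched. Depletion was called at 3.92%, 2.90%, 1.84%, 1.94% and 1.2% of the same quintiles. For enrichment over all matched genes, the step lay between the fewest CG pairs and the middle of the range, with no further gain above it. Among genes of exon length up to the median, 2.90%, 6.81% and 10.3% were enriched in the lowest, middle and highest CG quintiles. Among genes of longer exons the shares were 1.04%, 2.16% and 1.79%.

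Gene structure separated the genes further. The span of a gene on the chromosome divided by its exon length tells how much of it is intron, and these classes were chosen after the values were seen. Genes with a ratio up to 1.1, which have almost no intron, were enriched in 73 of 1026 cases (7.12%), and those with a ratio over 8 in 266 of 9144 cases (2.91%). Where both features met, in genes of the highest CG quintile with a ratio up to 1.1, enrichment was called at 11 of 78 genes (14.1%), and 10 of these 11 were also 2-fold over exon length. Their summed H3K4 share was 1.59 times (1.51 to 1.67) their input share. Almost intronless genes of the middle CG quintiles were enriched at 28 of 263 genes (10.6%), with a summed ratio of 1.28 (1.24 to 1.32). Of these 28, 26 were also 2-fold over exon length. Almost intronless genes of the lowest CG quintile were enriched at 12 of 372 genes (3.23%), with a summed ratio of 0.97 (0.93 to 1.02). Genes of the highest CG quintile with a span ratio over 8 were enriched at 49 of 1699 genes (2.88%), with a summed ratio of 0.96 (0.95 to 0.97). Signal in introns or upstream of the first exon is not in these counts.

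**Figure D2:**
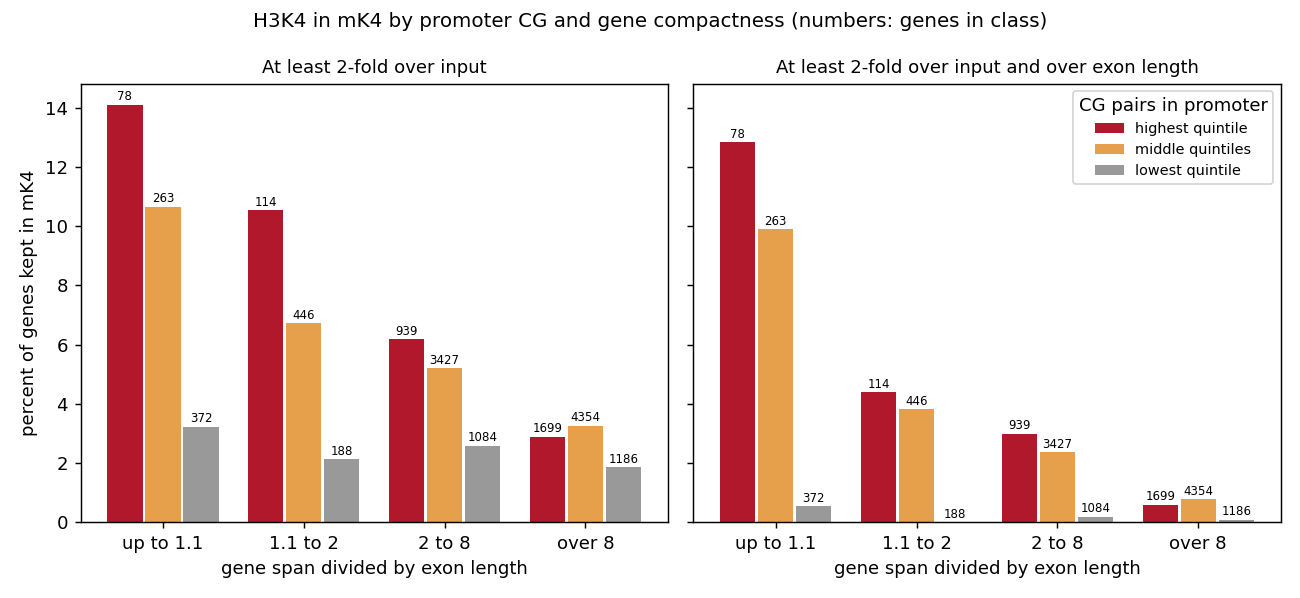
Bars give the percent of mK4 genes kept that were enriched, by gene span over exon length (x axis) and promoter CG class (colour), for the call over input (left) and over input and exon length (right); the number of genes stands above each bar. Both panels peak at almost intronless genes of the highest CG quintile, at 14.1% on the left.

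Genes of short exon length were called more often in both directions. From the shortest to the longest quintile of genes by exon length, 7.82%, 5.35%, 4.50%, 2.00% and 0.82% were enriched, and 3.24%, 3.21%, 2.69%, 2.06% and 1.1% were depleted. Within the highest CG quintile, genes with exon length below the median were enriched in 10.3% of cases and those above it in 1.79%. The share enriched was 8.45% (63 of 746) among genes with 160 reads or more, and all 63 were also 2-fold over exon length. In the classes with fewer reads it ran between 3.69% and 4.31%. These classes count H3K4 reads, which also enter both calls, so they are not independent of the calls. By chromosome the share enriched over input ranged between 2.85% on X and 5.48% on chromosome 13. Against exon length, chromosome 3 stood apart, with a median log2 of 0.58 against -0.11 over all genes kept, and 264 of its 927 genes were at least 2-fold over exon length, against 1382 of all 18224. Its mK4 input was also high, at 11.1 reads per kilobase of exon against 6.58 over all genes kept. Chromosome 15 had a similar mK4 input, at 10.9, and 94 of its 748 genes were at least 2-fold over exon length, with a median log2 of 0.04. Snhg8, Snora24 and Lef1, described further on, lie on chromosome 3. Long non-coding RNA genes were enriched in 30 of 470 cases (6.38%).

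The 15 enriched genes with the highest lower bound of the interval had 20 to 407 H3K4 reads and 0 to 56 input reads. Hpcal1, a neuronal calcium sensor protein, had 34 H3K4 reads and 0 input reads. Its ratio was 6.14 against a floor of 3 input reads, and the lower bound of its interval was 4.73. Rrs1, a ribosome biogenesis factor, had 121 H3K4 reads and 8 input reads, a ratio of 8.19 (4.03 to 19.4). Fam96b, a cytosolic iron-sulphur assembly factor, had 35 H3K4 reads and 1 input read, a ratio of 19 (3.19 to 770). These 3 show the range of evidence, since the Rrs1 value rests on many reads and the other values on an input of 0 or 1.

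The immediate early gene Ier3 had 160 H3K4 reads and 17 input reads, a ratio of 5.10 (3.09 to 8.97). Cited2, a CBP/p300-binding transcriptional regulator needed for heart and adrenal development in mice, had 182 H3K4 reads and 21 input reads, a ratio of 4.69 (2.98 to 7.77). Arl4c, an Arf-like small GTPase, had 407 H3K4 reads and 56 input reads, a ratio of 3.94 (2.97 to 5.30). All of these genes are compact, with span ratios of 1.1, 1.24 and 1.0. Otud1, a deubiquitinase, had 187 H3K4 reads and 23 input reads, a ratio of 4.40 (2.85 to 7.12). Sox4, an HMG-box factor of embryonic progenitors, had 247 H3K4 reads and 37 input reads, a ratio of 3.62 (2.55 to 5.26). Gadd45b, a stress and growth-arrest gene, had 111 H3K4 reads and 14 input reads, a ratio of 4.29 (2.45 to 8.11). In all 6, H3K4 was also at least 2-fold over exon length.

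Snhg8, a host gene of small nucleolar RNA, had 248 H3K4 reads and 33 input reads, a ratio of 4.07 (2.82 to 6.04). Its small nucleolar RNA Snora24, chosen after its values were seen, had 64 H3K4 reads and 3 input reads, a ratio of 11.6 (3.78 to 57.5). The Snora24 exon lies within the host gene, so the same reads may count for both. Crebzf, a bZIP factor, had 265 H3K4 reads and 36 input reads, a ratio of 3.99 (2.81 to 5.82). Nr2c2ap, a nuclear receptor partner, had 78 H3K4 and 7 input reads, and the mitochondrial ribosomal gene Mrps11 had 60 H3K4 and 5 input reads. Tm2d1 had 20 H3K4 and 0 input reads, a ratio of 3.61 against the same floor, and the lower bound of its interval was 2.67. The interferon receptor gene Ifnar2 had 28 H3K4 reads and 1 input read. Ifnar2 was the only 1 of the 15 whose H3K4 lay below exon length, at -0.26 on the log2 scale.

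The mK3 libraries share no reads with the mK4 libraries and did not enter the ranking of these genes. In mK3, all 15 genes had a log2 H3K4 over input above 0, and 10 were enriched there too, where 5.4% of the 16977 genes kept in both lines were. The median over the 15 was 1.18 in mK3. Rrs1 had 105 H3K4 reads and 10 input reads in mK3, and Ier3 had 132 H3K4 and 24 input reads. Arl4c had 180 H3K4 and 40 input reads in mK3, and Tm2d1 had the smallest mK3 ratio of the 15, with 12 H3K4 and 5 input reads.

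The 15 depleted genes with the lowest upper bound had 1 to 17 H3K4 reads and 10 to 38 input reads, against medians of 29 H3K4 and 16 input reads over all genes kept. They included genes restricted to tissues other than embryonic mesenchyme. The T cell surface gene Cd7 had 2 H3K4 reads and 15 input reads, a ratio of 0.0722 (0.00801 to 0.311). The mucosal chemokine gene Cxcl17 had 2 H3K4 reads and 14 input reads, a ratio of 0.0774 (0.00853 to 0.337). Guca2b, which encodes the intestinal peptide uroguanylin, had 1 H3K4 read and 10 input reads, a ratio of 0.0542 (0.00125 to 0.381). All of these had fewer than 20 reads in the pair of libraries.

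More reads stood behind Lrtm2 and Grin1. Lrtm2, a leucine-rich repeat membrane gene, had 14 H3K4 reads and 37 input reads, a ratio of 0.205 (0.102 to 0.388). Grin1, a subunit of the NMDA glutamate receptor, had 17 H3K4 reads and 38 input reads, a ratio of 0.242 (0.128 to 0.440). The kynureninase gene Kynu had 5 H3K4 and 21 input reads, and the amino acid oxidase gene Il4i1 had 6 H3K4 and 21 input reads. The P450 gene Cyp4x1 had 1 H3K4 and 11 input reads, and the transporter gene Slc43a3 had 5 H3K4 and 18 input reads. Widely expressed genes were present as well. Sdcbp, the scaffold protein syntenin, had 9 H3K4 and 26 input reads. Phb, the mitochondrial prohibitin, had 4 H3K4 and 16 input reads, Dcakd had 7 H3K4 and 22 input reads, the small GTPase gene Arl4d had 5 H3K4 and 17 input reads, and the histone gene Hist1h2ae had 5 H3K4 and 17 input reads.

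Twist1, a bHLH factor of mesenchyme, was the depleted gene that went the other way in mK3. It had 1 H3K4 read and 10 input reads in mK4, a ratio of 0.0542 (0.00125 to 0.381), and 100 H3K4 reads and 15 input reads in mK3, a ratio of 3.49. Of the other 14 depleted genes none was enriched in mK3, and 9 of the 15 had a log2 ratio above 0 there. The median over the 15 was 0.12 in mK3, and the genes lay on both sides of 0 there.

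**Figure D3:**
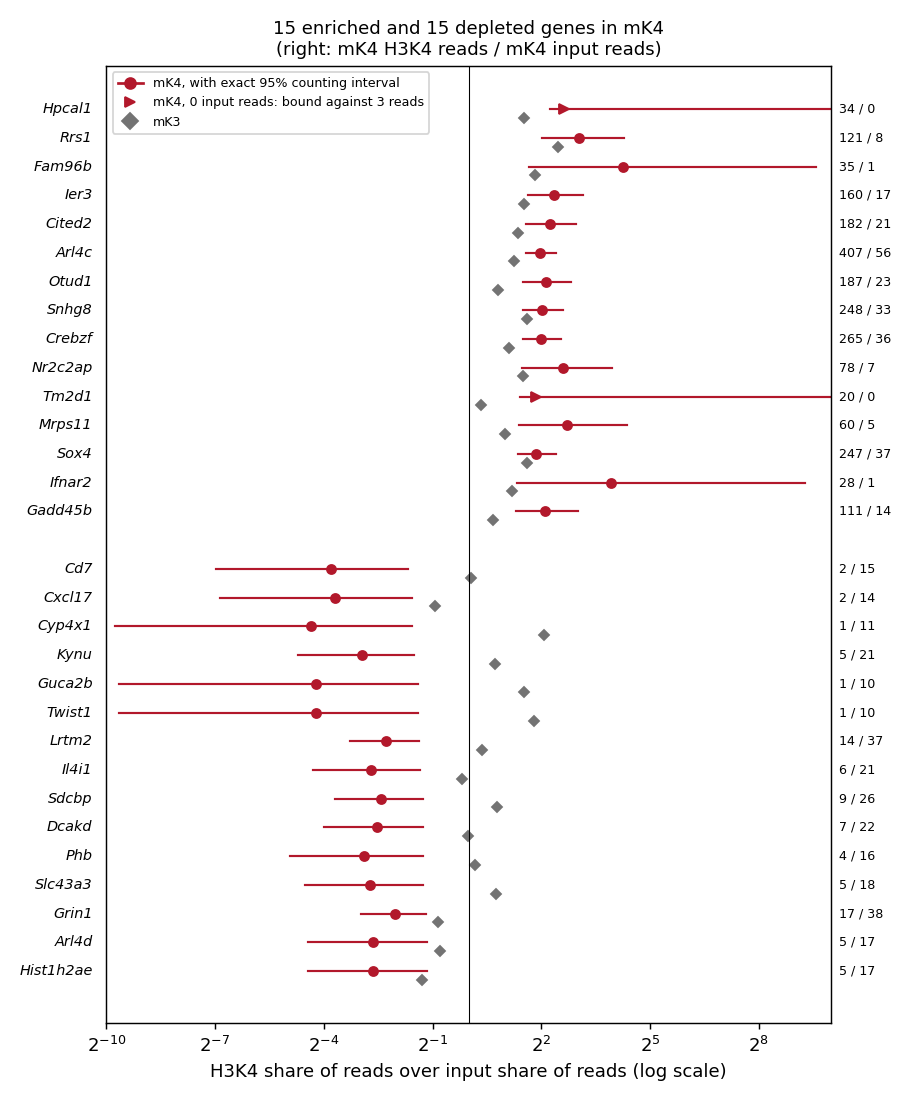
H3K4 share over input share (log scale) for the 15 enriched and 15 depleted genes in mK4 (red, bars give the exact 95% counting interval, triangles mark bounds where input had 0 reads) and in mK3 (grey diamonds). All 15 enriched genes lie right of 1 in mK3 as well, and the 15 depleted genes lie on both sides.

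Genes of the protein synthesis and energy machinery, which every growing cell uses, lay above the other genes as groups. Over all genes kept the median log2 ratio was -0.02 and 4.1% were enriched. These groups have short exons, with median lengths of 733 bases for cytosolic and 1066 for mitochondrial ribosomal protein genes. The median was 750.5 for oxidative phosphorylation and 1406.5 for proteasome genes, against 2637 over all genes kept. In the quintile of shortest exon length, 7.82% of genes were enriched and the median log2 ratio was 0.13. The part of exon length in the group values was not tested. Of 73 cytosolic ribosomal protein genes kept, 15 were enriched and 1 depleted, with a median of 0.33. Rps13 had 26 H3K4 and 2 input reads, Rpl8 had 64 H3K4 and 10 input reads, Rps23 had 17 H3K4 reads and 1 input read, and Rpl39 had 12 H3K4 and 0 input reads. Of the 15, 6 were also 2-fold over exon length, Rps13 and Rpl8 among them. Ribosomal protein genes have many processed pseudogenes, and how reads shared with such copies were counted is not given in the sources used here.

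Of 70 mitochondrial ribosomal protein genes, 8 were enriched and 2 depleted, with a median of 0.43, led by Mrps11 above and Mrpl34 with 42 H3K4 and 4 input reads. Of 62 oxidative phosphorylation genes, 8 were enriched and 2 depleted, with a median of 0.44, and all 8 were also 2-fold over exon length. Atp5c1, the ATP synthase gamma subunit, had 88 H3K4 and 11 input reads, a ratio of 4.33 (2.31 to 9.0). The complex I genes Ndufb8 and Ndufa2 had 38 and 30 H3K4 reads against 4 and 3 input reads. The complex II gene Sdhd was depleted, with 9 H3K4 and 17 input reads.

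Of 38 proteasome genes, 5 were enriched and 1 depleted, with a median of 0.29. Psmd13 had 33 H3K4 and 4 input reads and Psmd14 had 30 H3K4 and 4 input reads, while Psmb9, a subunit of the interferon-induced immunoproteasome, was the depleted gene with 3 H3K4 and 8 input reads. Of 43 housekeeping genes, 6 were enriched and 3 depleted, with a median of 0.27. The actin regulator gene Cfl1 had 25 H3K4 reads and 1 input read, the splicing factor gene Hnrnpa1 had 43 H3K4 and 7 input reads, and the chaperone gene Hspa8 had 23 H3K4 and 3 input reads. None of the 6 was 2-fold over exon length, and Hspa8 lay at -0.057 on the log2 scale there. Actb had 214 H3K4 and 58 input reads, a ratio of 2.0 (1.49 to 2.72) that lay just under the call, at 0.95 on the log2 scale. Gapdh had 9 H3K4 and 2 input reads, too few to place it.

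In mK3 the medians of these groups were 0.48 for cytosolic ribosomal, 0.33 for mitochondrial ribosomal, 0.30 for oxidative phosphorylation and 0.35 for proteasome genes. The housekeeping genes had a lower mK3 median of 0.10, and their mK4 median was 0.11 with the inputs of both lines summed. H3K27 over the same mK4 input had medians between -0.61 and -0.33 in all of these groups, against -0.10 over all genes with H3K4 kept. Small nucleolar RNA genes, most of which lie within such host genes, had 6 enriched and none depleted among the 19 kept of 113, with a median of 0.83 that was 0.04 with no read minimum.

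Clustered histone genes lay below input. Of 67, 28 were kept, of which none was enriched and 6 were depleted, with a median of -0.38 in mK4 and -0.37 in mK3. The mK4 median was -0.15 with no read minimum, -0.25 with the inputs of both lines summed and 0.67 against exon length. The linker histone genes Hist1h1d and Hist1h1e had 60 and 41 H3K4 reads against 80 and 60 input reads, ratios of 0.406 (0.286 to 0.575) and 0.370 (0.243 to 0.560). In mK3 they had 58 and 40 H3K4 reads against 55 and 46 input reads. Their input density was high, at 69.5 and 80.3 RPKM against a median of 15.4 RPKM for all genes kept. Against exon length the same genes lay above 0, at 0.70 and 0.72 on the log2 scale, so the sign of their value depends on the background. RPKM is the deposited read density, corrected for exon length and library total.

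Cell cycle and immediate early genes were enriched more often than all genes. Of 40 cell cycle and p53 genes, 7 were enriched and none depleted, with a median of 0.34. The CDK inhibitor gene Cdkn1b had 165 H3K4 and 25 input reads, a ratio of 3.57 (2.34 to 5.68). Cdk4 had 61 H3K4 and 11 input reads, Plk1 had 74 H3K4 and 14 input reads, and Trp53 had 33 H3K4 and 4 input reads. Of 26 immediate early genes, 4 were enriched and 1 depleted, with a median of 0.16. Jun had 177 H3K4 and 31 input reads, a ratio of 3.09 (2.10 to 4.69), and Ier5 had 290 H3K4 and 55 input reads, a ratio of 2.86 (2.13 to 3.88). Atf3 was the depleted member, with 5 H3K4 and 14 input reads.

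BMP and TGF-beta signalling, which patterns the cap mesenchyme and the stroma of the kidney, had 9 of 38 genes enriched and none depleted, with a median of 0.33. The enriched genes were targets and inhibitors of the pathway and ligands. Among the targets, the Id genes encode inhibitors of bHLH factors that BMP induces. Id1 had 172 H3K4 and 26 input reads, a ratio of 3.58 (2.36 to 5.64), and Id3 had 100 H3K4 and 18 input reads, a ratio of 3.01 (1.81 to 5.28). Id2, chosen after its values were seen as were the next 4 genes, had 72 H3K4 and 15 input reads. The inhibitory Smad genes Smad6 and Smad7 had 116 and 274 H3K4 reads against 26 and 66 input reads. Nog, an extracellular BMP antagonist, had 149 H3K4 and 36 input reads, and the ligand gene Tgfb1 had 82 H3K4 and 17 input reads. All 7 of these were also 2-fold over exon length, while the ligand genes Bmp6 with 48 H3K4 and 7 input reads and Bmp8a with 18 H3K4 reads and 1 input read were not, and Bmp8a lay at -0.21 on the log2 scale against exon length. In mK3, 7 of the 38 were enriched and the median was 0.02, and with the inputs of both lines summed as background the mK4 median was 0.05.

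Notch pathway genes had 3 of 25 enriched, with Hes1, a Notch target, at 116 H3K4 and 25 input reads and a ratio of 2.51 (1.62 to 4.04), and the receptor gene Notch4 at 112 H3K4 and 21 input reads. In the FGF and GDNF pathway, with a median of -0.20, 1 of 31 (3.23%) was enriched, near the 4.1% of all genes kept. That gene was Dusp6, a phosphatase induced by and opposing ERK signalling, with 190 H3K4 and 45 input reads, a ratio of 2.29 (1.64 to 3.24). Of 47 Wnt pathway genes, 2 (4.26%) were enriched, also near the share of all genes kept, and 1 was depleted. Their median was -0.02. Lef1, the nuclear partner of beta-catenin, had 186 H3K4 and 46 input reads, a ratio of 2.19 (1.58 to 3.09).

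**Figure D4:**
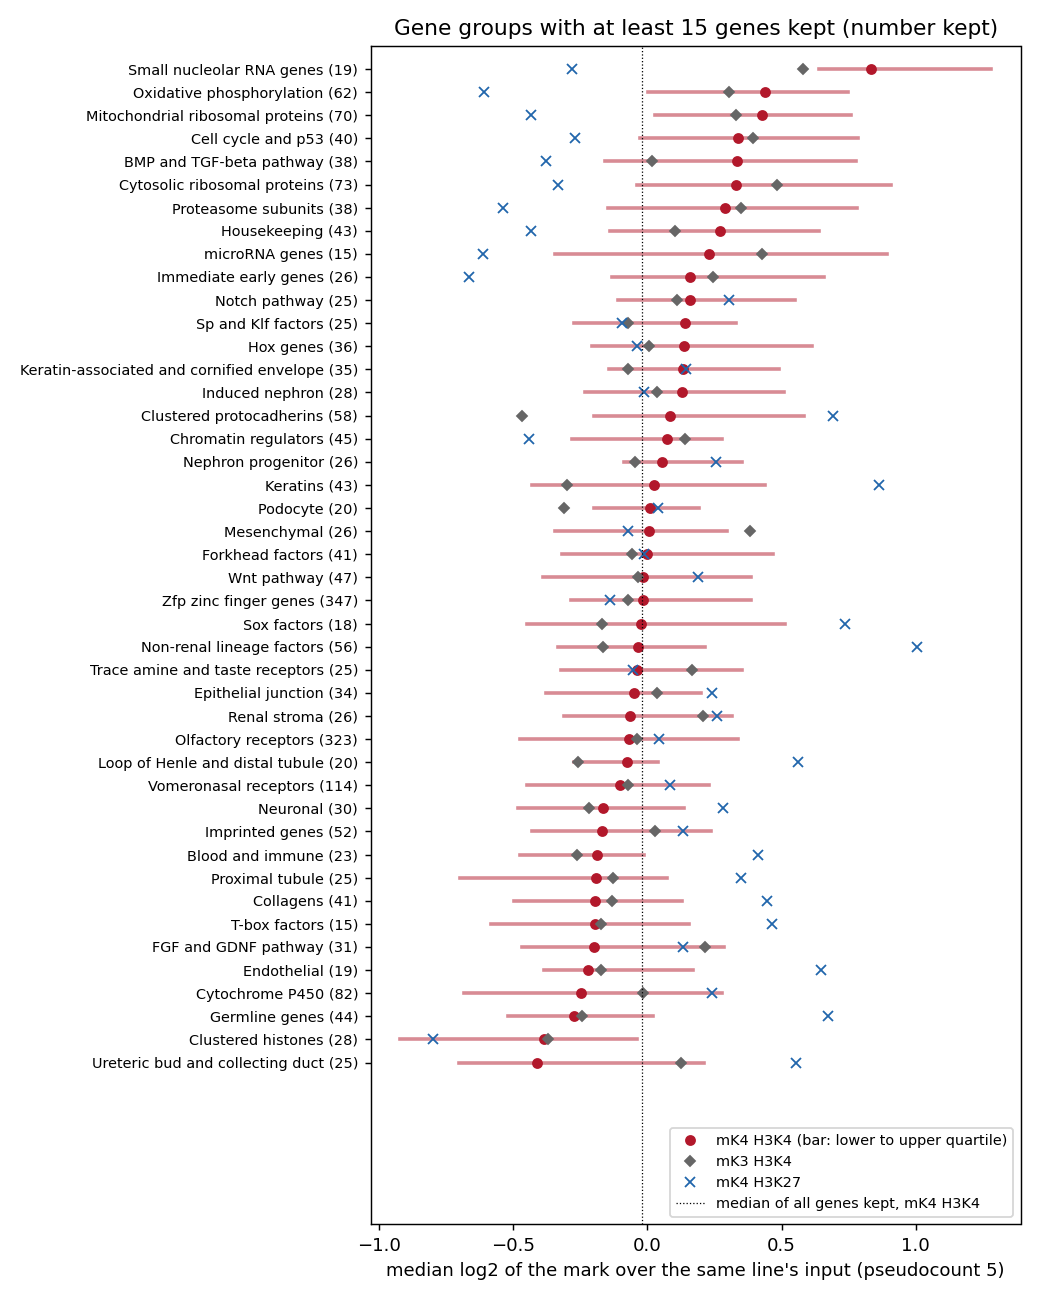
Median log2 of each mark over the same line's input for gene groups with at least 15 genes kept, with mK4 H3K4 in red (bar from lower to upper quartile), mK3 H3K4 as grey diamonds and mK4 H3K27 as blue crosses. Small nucleolar RNA, oxidative phosphorylation and mitochondrial ribosomal genes have the highest mK4 H3K4 medians (0.83, 0.44 and 0.43), and most quartile bars span the dotted median of all genes.

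Kidney lineage genes were divided. Genes of the induced nephron, the stage after progenitors receive the inductive signal, had 5 of 28 enriched and none depleted, with a median of 0.13, and all 5 were also 2-fold over exon length. Among them were Sox11 with 422 H3K4 and 89 input reads and a ratio of 2.57 (2.04 to 3.27), Irx1 with 75 H3K4 and 15 input reads, Emx2 with 112 H3K4 and 24 input reads, and Lef1 above. The ratio was 2.71 (1.54 to 5.08) for Irx1 and 2.53 (1.62 to 4.11) for Emx2. In mK3, Emx2 had 89 H3K4 and 18 input reads, while Irx1 had 8 H3K4 and 6 input reads and Sox11 had 103 H3K4 and 42 input reads. The group had 2 genes enriched in mK3 and a median of 0.04 there.

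The Iroquois homeobox genes, which pattern the nephron along its length, had 3 of 6 enriched and a median of 1.03, against -0.12 in mK3. Irx5 had 141 H3K4 and 32 input reads in mK4, a ratio of 2.39 (1.62 to 3.62), and 35 H3K4 and 17 input reads in mK3, a ratio of 1.08. Irx2 had 71 H3K4 and 19 input reads in mK4, a ratio of 2.02 (1.21 to 3.56) that lay under the call, at 0.89 on the log2 scale. In mK3 it had 18 H3K4 and 14 input reads, a ratio of 0.673. Irx4 was called with 17 H3K4 reads and 1 input read in mK4, but it lay at -0.62 against exon length and H3K27 had 31 reads there. The Irx1, Irx2 and Irx4 genes lie together on chromosome 13 and Irx5 lies on chromosome 8.

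Several forkhead, Sox and Hox genes were enriched. The median log2 ratios of these families were -0.0002, -0.02 and 0.14, against -0.02 over all genes kept. Of 41 forkhead genes, 5 were enriched, and 3 of these, Foxc1, Foxc2 and Foxd1, were also 2-fold over exon length. Foxa3, a forkhead factor of endoderm, was enriched over input but lay at -0.34 on the log2 scale against exon length. Foxc1 and Foxc2, both needed in early kidney mesoderm, had 267 and 148 H3K4 reads against 47 and 36 input reads, with ratios of 3.08 (2.25 to 4.29) and 2.23 (1.54 to 3.30). Foxd1, which marks the renal stroma, was the 1 gene enriched among 26 stromal genes (3.85%), near the 4.1% of all genes kept. Foxd1 had 131 H3K4 and 33 input reads in mK4, a ratio of 2.15 (1.46 to 3.25). In mK3 it had 95 H3K4 and 24 input reads, a ratio of 2.07. Of 18 Sox genes, Sox4, Sox11 and Sox9 were enriched and Sox12 was depleted. Sox9 had 119 H3K4 and 26 input reads, and Sox12 had 25 H3K4 and 35 input reads in mK4 against 114 H3K4 and 29 input reads in mK3. Of 36 Hox genes, Hoxb7 with 71 H3K4 and 8 input reads, Hoxb8 with 152 H3K4 and 39 input reads and Hoxc5 with 25 H3K4 and 4 input reads were enriched. The direction of Hoxc5 turned to -0.26 on the log2 scale against exon length and to -0.16 with both inputs summed, and its log2 H3K27 over mK4 input was 2.47.

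Genes of the nephron progenitor list were mostly near input. The 6 kidney genes given after that list were fixed by name. They belong to different nephron stages and are not all genes of the uninduced progenitor. Of 26 nephron progenitor genes, 2 were enriched and none depleted, with a median of 0.05 that was -0.30 against exon length. Six2, which keeps progenitors undifferentiated, had 13 H3K4 and 10 input reads in mK4, a ratio of 0.704 (0.285 to 1.79), and 28 H3K4 and 6 input reads in mK3. Wt1 had 23 H3K4 and 12 input reads, a ratio of 1.04 (0.496 to 2.29). Pax2 had 26 H3K4 and 8 input reads in mK4, a ratio of 1.76 (0.774 to 4.50), and 4 H3K4 and 10 input reads in mK3. Pax8 had 64 H3K4 and 24 input reads, a ratio of 1.44 (0.891 to 2.41), Wnt4 had 8 H3K4 and 5 input reads, a ratio of 0.867 (0.25 to 3.37), and Lhx1 had 45 H3K4 and 28 input reads, a ratio of 0.870 (0.531 to 1.45). For these 6 genes, Six2, Wt1, Pax2, Pax8, Wnt4 and Lhx1, the interval included 1, so a difference from input was not detectable at this depth.

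Hoxa11 and Cdh6 had many reads in both libraries. Hoxa11 had 392 H3K4 and 245 input reads in mK4, a ratio of 0.867 (0.737 to 1.02), and an input level of 282 RPKM. Cdh6, a cadherin of the early nephron, had 421 H3K4 and 259 input reads, a ratio of 0.880 (0.752 to 1.03), and an input level of 253 RPKM. Both had H3K4 levels far above exon length, at 3.61 and 3.52 on the log2 scale, and input was as high. With the inputs of both lines summed as background, the log2 ratio of Hoxa11 was -0.62, against -0.20 over mK4 input, and that of Cdh6 turned to 0.61, against -0.18 over mK4 input. The mK3 input library had 347 reads for Hoxa11 and 9 for Cdh6. Cdh1, the epithelial cadherin, had 50 H3K4 and 27 input reads, a ratio of 1.0 (0.616 to 1.67).

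The proximal tubule, ureteric bud, blood, neuronal and other-lineage lists each had a median below that of all genes kept. The shares called over all genes kept were 4.1% enriched and 2.46% depleted. None or 1 gene called in a list this small is near those shares. None of 25 proximal tubule genes was enriched and 1 was depleted, Pck1, the gluconeogenic enzyme, with 12 H3K4 and 20 input reads. Of 25 ureteric bud and collecting duct genes, 4 were enriched and 4 depleted, with a median of -0.41 that was 0.21 over members with at least 50 reads. Hoxb7 and Emx2 above were among the 4 enriched. Of 20 loop of Henle and distal tubule genes, none was enriched and 1 was depleted, Calb1, a calcium-binding protein of the distal nephron, with 14 H3K4 and 19 input reads. Blood and immune genes had none of 23 called in either direction and a median of -0.19. Neuronal genes had 1 of 30 (3.33%) enriched and 3 (10%) depleted, Grin1 among them. Of 56 factors of lineages outside the kidney, 2 (3.57%) were enriched and 4 (7.14%) depleted. The depleted genes included Nkx2-5 of the heart with 5 H3K4 and 14 input reads and Cdx2 of the intestine with 21 H3K4 and 32 input reads. The H3K27 median of the 56 factors over the same input was 1.0.

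Germline genes had a median of -0.28. Of 44, 1 (2.27%) was enriched and 1 (2.27%) depleted, near the 4.1% and 2.46% of all genes kept. The depleted gene was Taf7l, with 18 H3K4 and 31 input reads. Sycp1, a synaptonemal complex gene, had 104 H3K4 and 111 input reads, a ratio of 0.507 (0.385 to 0.669). Of 26 mesenchymal genes 1 (3.85%) was enriched, Twist2 with 65 H3K4 and 10 input reads, and 2 (7.69%) were depleted, Twist1 among them. Of 82 cytochrome P450 genes, 3 (3.66%) were enriched and 7 (8.54%) depleted. Their median was -0.25, and it was 0.55 over members with at least 50 reads. Cyp2c65 was among the enriched genes with 12 H3K4 and 0 input reads, but lay at -0.63 on the log2 scale against exon length. None of 45 chromatin regulator genes was enriched and 2 (4.44%) were depleted. The depleted genes were Paxip1, a subunit of an H3K4 methyltransferase complex, and Suv39h1, an H3K9 methyltransferase. They had 30 and 17 H3K4 reads against 42 and 23 input reads. Lhx2, a LIM homeobox gene, was enriched with 49 H3K4 and 6 input reads.

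KRAB members of the Zfp zinc finger family are known to carry H3K9 trimethylation in mice, and which mark the antibody bound was not tested. Of 347 Zfp genes, 9 (2.59%) were enriched and 8 (2.31%) depleted, against 4.1% and 2.46% of all genes kept. Their median was -0.02. None of the 9 was 2-fold over exon length, and Zfp839 with 62 H3K4 and 11 input reads and Zfp81 with 38 H3K4 and 6 input reads were among the highest. Of 1126 olfactory receptor genes 323 were kept, of which 10 (3.1%) were enriched and 16 (4.95%) depleted, against 4.1% and 2.46% of all genes kept. Their median was -0.07, and their summed H3K4 share was 0.875 times (0.825 to 0.929) their input share. Of 331 vomeronasal receptor genes, which detect pheromones, 114 were kept, of which 4 (3.51%) were enriched and 9 (7.89%) depleted, with a summed ratio of 0.844 (0.774 to 0.921).

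Blocks of neighbouring genes differed from input by less than 2-fold. Of 1793 blocks of 10 consecutive genes kept, 220 had a summed H3K4 share over input share with its interval above 1 and 243 had one with its interval below 1. None had a summed ratio of 2 or more, 14 blocks held 3 or more enriched genes, and no block held more than 4. The block ratio ran between 0.52 and 1.82 with a median of 1.0. The highest block, on chromosome 19 between Ehbp1l1 and Tigd3, had a ratio of 1.82 (1.64 to 2.03) in mK4 and 1.85 (1.67 to 2.07) in mK3. It holds the nuclear long non-coding RNA genes Malat1, with 621 H3K4 and 139 input reads, and Neat1, with 357 H3K4 and 92 input reads, both chosen after their values were seen. The lowest block, on chromosome 13 between Btn1a1 and Hist1h2ac, lies in the main histone cluster and had a ratio of 0.52 (0.44 to 0.61) in mK4 and 0.56 (0.46 to 0.67) in mK3.

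The genes enriched in mK4 were followed in the mK3 pair of libraries. Among the 16977 genes kept in both lines, 695 were enriched in mK4 and 917 in mK3 (5.4%), and 170 were enriched in both, which is 24.5% of the mK4 set and 18.5% of the mK3 set. Depletion was called at 396 genes in mK4 and 629 in mK3 (3.71%), and 31 were depleted in both, 7.83% of the mK4 set and 4.93% of the mK3 set. Enrichment in mK4 with depletion in mK3 was seen at 12 genes, and depletion in mK4 with enrichment in mK3 at 7. The median mK3 log2 ratio was 0.45 over the mK4-enriched genes and -0.23 over the mK4-depleted genes, against -0.02 over all.

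This overlap differed between mK4-enriched genes by their value over exon length. The same groups also differed in depth, with medians of 71, 33 and 17 mK4 H3K4 reads from highest to lowest over exon length. Depth and background cannot be told apart here, and the part of each was not tested. Of the mK4-enriched genes that were also 2-fold over exon length, 125 of 292 (42.8%) were enriched in mK3, with a median of 0.90. Of those between 1-fold and 2-fold over exon length, 40 of 296 (13.5%) were. Of those below exon length, 5 of 107 (4.67%) were, close to the 5.4% of all genes, and 5 were depleted, with a median of 0.003. Across genes, the log2 ratios of mK4 and mK3 had a Pearson correlation of 0.25 and a Spearman correlation of 0.22 over 16977 genes. Over the 4348 genes with at least 60 reads in each pair they were 0.47 and 0.40. Genes are not independent replicates, and gene length and sequence composition are common to both lines.

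**Figure D5:**
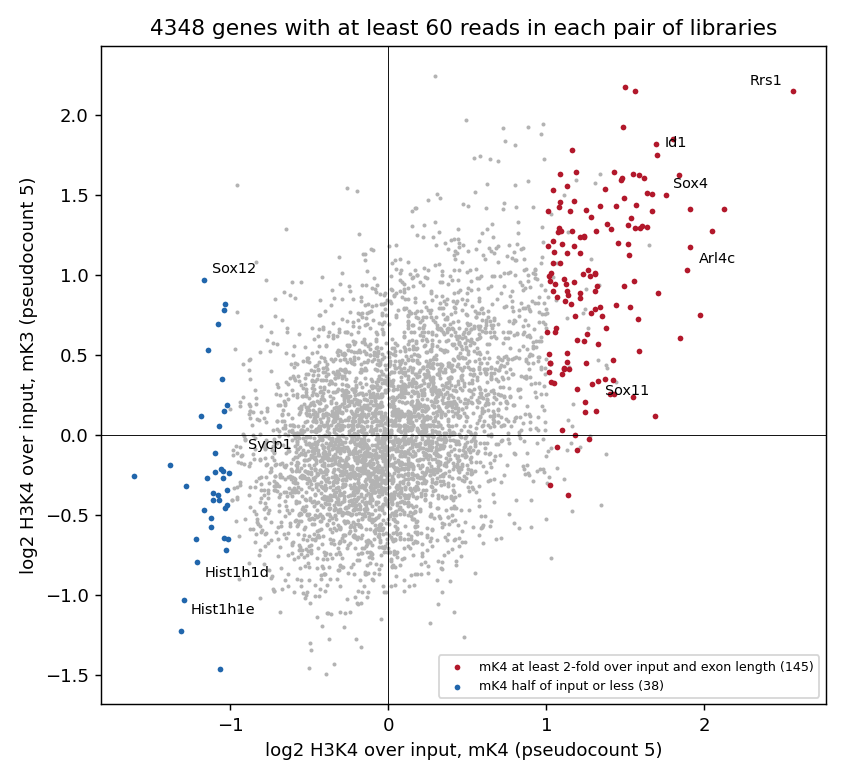
Log2 H3K4 over input in mK4 (x axis) and mK3 (y axis) for 4348 genes with at least 60 reads in each pair of libraries. Of the 145 genes in red, 2-fold over input and exon length in mK4, most lie above 0 in mK3, and the 38 depleted genes in blue lie on both sides with more below 0.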

How the data were processed

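ChIP-seq libraries of H3K4, H3K27 and input from mK4 and mK3 were used, 1 library per group. The authors deposited 22088 gene rows per library with exon length, whole-number read counts and RPKM. Per the file headers, counts as deposited are reads per gene, and the deposited RPKM values correct the counts for exon length and for the column's own sum. Reads were placed on build mm9 according to the submitters' processing notes. The library service is the only preparation step given, and the sources used here do not give the aligner, duplicate removal or strand. Counts over exons leave out introns and upstream sequence, so they measure only part of a promoter mark.

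Where a symbol had several rows (137 symbols), the row highest on average in the pull-down libraries was used, leaving 21937 genes. Counts were scaled to 513622 reads, the mean of the 6 totals, and log2 ratios used a pseudocount of 5, which understates differences of genes with few reads. Genes with 10 reads or more were kept, called at 2-fold, and no count model was fitted. Intervals are exact Clopper-Pearson 95% intervals, and a fold against 0 input reads used a floor of 3 reads in that library. Named genes are the 15 in each direction with the most extreme near bound of the interval, leaving out clone-named and small RNA genes, up to 4 per list with the largest absolute ratio, and 12 fixed by name. The text gives a part of these, and a few genes are not reported here. The members, the 50 gene lists and the rules were chosen with earlier results of these data known, and the span classes and the call over both backgrounds were added after seeing the data. Of the genes kept, 16179 symbols and 1855 synonyms matched RefSeq of GRCm38.p6 on their own chromosome, and 190 were unmatched. Where a gene had several annotated starts, the promoter with the most CG pairs was used. The ratio and call steps were tested on simulated data. Python 3.11.15, pandas 2.3.3, numpy 2.4.6 and scipy 1.17.1 were used.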

Additional observations from a re-analysis of the deposited data

Results flagged for a closer look

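Twist1 and Foxa3 were called in opposite directions in the lines, and this difference was not tested, since each line has 1 library per antibody. Twist1 had a log2 H3K4 over input of -1.68 in mK4 and 1.62 in mK3. Foxa3, a forkhead factor of endoderm, had 1.17 in mK4, with 17 H3K4 and 2 input reads and -0.34 against exon length, and -1.71 in mK3, with 3 H3K4 and 12 input reads.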

How the results depend on the processing

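The 747 enriched and 448 depleted genes became 1493 and 1098 with a pseudocount of 1, 342 and 94 with at least 50 reads, 1382 and 1057 with exon length as background, 1426 and 1443 by the exact interval alone, and 297 and 137 when both input and exon length had to pass. The counts were 810 and 554 with no minimum, 803 and 415 after median centring, 529 and 407 with both inputs summed, and 747 and 448 with rows of a symbol summed. Exon length as background moved the median of all genes to -0.11 and reversed 10 of 111 named genes: Bmp8a to -0.21, Cyp2c65 to -0.63, Foxa3 to -0.34, Hoxc5 to -0.26, Hspa8 to -0.057, Ifnar2 to -0.26, Irx4 to -0.62, Meox2 to -0.33, Hist1h1d to 0.70 and Hist1h1e to 0.72. Summed inputs reversed Hoxc5, to -0.16, and turned the uncalled Cdh6 to 0.61. The cause was not tested. No paired analysis was possible because each group has 1 library. Without replicates no library could be left out, and low counts limit most single genes.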
